A study of Arabidopsis thaliana with 36 samples.

Results

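The anticodon arm of a tRNA is a short stem closed by a loop that carries the 3 bases read against the codon. Its 3' side, taken here as nuclear tRNA sites listed at position 34 to 44, held 34 of the 349 pseudouridine (Ψ) sites in the deposited tRNA table and 34 of the 236 sites in nuclear tRNAs. Names starting with Leu, Ser or Tyr were not taken in. The 34 sites fell in 30 tRNA names of 11 amino acids, and membership rested on name and position alone, not on any measured value. A name gives the amino acid, the anticodon and the number of the authors' reference sequence, as in Ala-AGC-1.

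The values came from BID-seq of total RNA of wild-type Arabidopsis thaliana of the Col-0 accession. The tissues were root, seed, seedling, shoot, stem, flower, silique, cauline leaf and rosetta leaf (the labels' spelling). All were untreated wild-type tissues, so tissue is the only factor. Seedlings, shoots and roots came from culture plates, the leaves, stems, flowers and siliques from plants moved to soil, and seeds were taken dry and mature, so tissue, growth condition and stage cannot be told apart. In BID-seq, bisulfite forms an adduct with Ψ that reverse transcriptase skips, and the share of reads with a gap at the base is calibrated to a Ψ fraction between 0 (no molecule carries Ψ) and 1 (every molecule does). Each tissue had 2 bisulfite-treated and 2 input libraries, 36 libraries in all, but the authors pooled the replicates, so the table gives a single fraction for a site in a tissue. Depth and replicate spread are unknown, so no difference below could be set against experimental error, none was tested, and a value of 0 is described only as listed at 0. The tables hold no gene expression, so the tissue labels could not be checked against marker genes.

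Ψ is an isomer of uridine in which the base is joined to the sugar through carbon, and it stacks more rigidly than uridine. In the usual tRNA numbering the anticodon stem pairs positions 27 to 31 with 39 to 43, the loop spans 32 to 38, and the anticodon is 34 to 36, with 34 as the wobble base. Ψ at 38 and 39 lies where the loop meets the 3' strand of the stem. In yeast, Pus3 (Deg1) makes Ψ at 38 and 39, and in Escherichia coli TruA acts at 38 to 40. Ψ55 in the T loop, made by TruB-type enzymes in bacteria and Pus4 in yeast, occurs in almost all elongator tRNAs and is used below as a landmark in the same molecules.

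Listed positions count along the authors' reference sequences, so each site was placed in the usual numbering from the anticodon of the matching tRNA genes. Genes with the same amino acid and anticodon and a T at each listed position were found for 29 of the 30 names in the TAIR10.1 assembly. Pro-CGG-2 matched none of its genes at listed position 33 and was placed from their anticodon. The canonical position differed from the listed one at 13 sites, and canonical positions are used from here on. By them, 8 sites lay at position 38, 16 at 39, 1 at 33, 6 in the anticodon (1 at 34, 1 at 35 and 4 at 36), 2 at 41 and 1 at 42. All 34 sites lay in genes annotated with 1 exon, or in the case of Pro-CGG-2 in a family of such genes. The number of matching genes per name ran up to 44 for Pro-TGG, while Arg-CCG-3 and Gln-CTG-1 matched 1 gene each. Reads of identical gene copies cannot be separated.

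The arms at position 38 are shown first because the Ala and Pro tRNAs share the 5 pairs of their stem and yet lie at opposite ends of the scale. Each sequence runs 5' to 3' from position 27 to 43 of 1 matching gene, with T for U, and the capital marks the listed site. Where the matching genes hold several arms, the most frequent one is printed, and which arm a name carries is not known.
Ala-AGC-1, position 38, AT1G06610, chr1:2025382-2025398, plus strand: ctcgcttagcaTgcgag
Ala-CGC-1, position 38, AT1G64420, chr1:23933163-23933179, plus strand: ctcgcttcgcaTgcgag
Ala-TGC-1 and Ala-TGC-2, position 38, AT1G08870, chr1:2846566-2846582, minus strand: ctcgctttgcaTgcgag
Pro-TGG-2 and Pro-TGG-3, position 38, AT1G20420, chr1:7082693-7082709, plus strand: ctcgctttgggTgcgag
Pro-CGG-1, position 38, AT2G21360, chr2:9137381-9137397, plus strand: ctcgcttcgggTgcgag

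At position 39, the first base of the 3' strand of the stem, the following arms are shown to set the high Gln and Arg-TCT sites beside the lower Cys, Arg-TCG and Trp sites.
Gln-CTG-2, position 39, AT1G03570, chr1:892540-892556, plus strand: ttggactctgaaTccag
Gln-TTG-1, position 39, AT1G21420, chr1:7499762-7499778, minus strand: ctggactttgaaTccag
Arg-TCT-1, Arg-TCT-2 and Arg-TCT-3 (this arm in 3 of 9 matching genes, which hold 5 arms), position 39, AT2G25400, chr2:10813865-10813881, plus strand: cttgacttctaaTcaag
Phe-GAA-1, position 39, AT1G02480, chr1:515520-515536, plus strand: tcagactgaagaTctga
Cys-GCA-1, Cys-GCA-2, Cys-GCA-4 and Cys-GCA-5 (this arm in 10 of 14 matching genes, which hold 3 arms), position 39, AT1G53410, chr1:19925869-19925885, minus strand: attgactgcagaTcaat
Arg-TCG-1, position 39, AT1G11030, chr1:3678805-3678821, minus strand: tctgacttcggaTcaga
Trp-CCA-1 and Trp-CCA-2, position 39, AT1G15450, chr1:5309677-5309693, minus strand: tctgactccagaTcaga

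The arms with sites at position 36, 41 or 42 are shown because they hold the sites outside positions 38 and 39 that the root comparison turns on, or a pair of sites in 1 arm.
Lys-CTT-1, positions 36 and 42, AT1G01890, chr1:309305-309321, minus strand: caaggctctTaacctTg
Thr-CGT-1, position 36, AT1G13720, chr1:4709660-4709676, plus strand: ttcgcttcgTaagcgaa
Arg-CCT-1, position 36, AT1G49690, chr1:18387828-18387844, plus strand: tctgtttccTaagcaga
Arg-TCT-2, positions 36 and 39, AT2G25400, chr2:10813865-10813881, plus strand: cttgacttcTaaTcaag
Arg-CCG-3, positions 39 and 41, AT3G12585, chr3:3995127-3995143, minus strand: ttagactccgaaTcTaa
Gln-CTG-1, positions 39 and 41, AT1G01270, chr1:111919-111935, minus strand: ctagactctgaaTcTag

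All 16 sites at position 39 had an A before and a C after them, and an A at position 31 across the stem, in every matching gene. The bases further out differed between isotypes. The 5-base context was the same in all 9 Arg-TCT genes and in 12 of the 14 Cys genes. At position 38, the 4 Ala sites in caTgc had medians over the tissues of 0.969 to 1, and the 3 matched Pro sites in ggTgc had 0.030 to 0.091. At position 39, aaTcc (Gln) held medians of 0.971 to 1, aaTca (Arg-TCT) 0.798 to 0.929, aaTct (Arg-CCG-3 and Gln-CTG-1) 0.520 and 0.983, gaTct (Phe) 0.846, and gaTca (Cys, Arg-TCG and Trp) 0.112 to 0.733. The 5 bases around a site thus separated some groups, but gaTca covered a wide span and aaTct 2 distant values. Names matched to the same genes are not independent examples of a context.

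Most of these placements do not depend on where a gap is drawn. At 29 of the 33 sites in matched genes the site was a single T. The other 4 (Gly-TCC-1 34, Thr-AGT-1 33 and both Lys-CTT-1 sites) lay in a run of Ts, each at the last T of its run. A gap in such a run cannot be placed to a base, and over all 229 nuclear sites with a matched gene, 123 lay in runs, of which 104 were at the last T. For Gly-TCC-1, Thr-AGT-1 and Lys-CTT-1 the exact base is therefore not known from the fraction, and their positions below are those of the listed T.

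Listed sites filled position 39 more fully than the anticodon. Of 69 nuclear tRNA names with a matched gene, 18 had a uridine at position 39 and 16 of them had a listed site there. The exceptions were Cys-GCA-6 and Phe-GAA-2, the second matched only to a divergent gene. At position 38, 7 of 11 names with a uridine had a listed site, and the 4 without one were Pro-AGG-1, Pro-AGG-2, Pro-AGG-3 and Pro-TGG-1. In the anticodon, where some sites lie in runs of Ts, 3 of 19 names were listed at 34, 1 of 17 at 35 and 4 of 23 at 36, counting sites listed just outside the window. At position 41 it was 2 of 13, at 42 1 of 2 and at 43 0 of 2. No name had a uridine at 37 or 40. A missing listing does not show that a uridine is unmodified, since coverage is unknown.

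**Figure D1:**
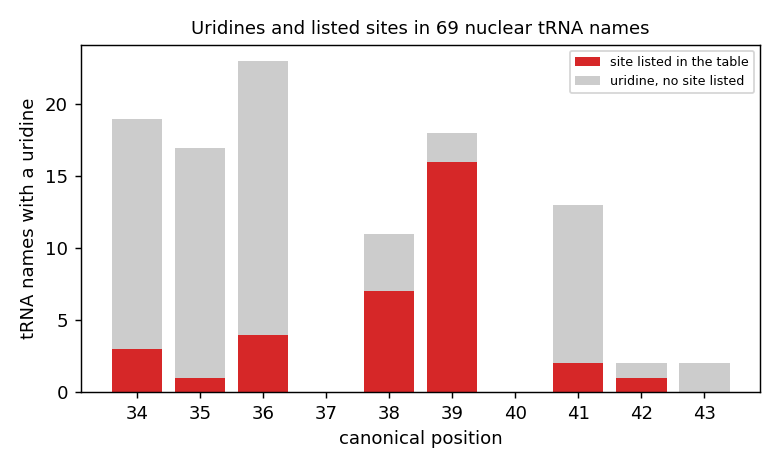
Number of nuclear tRNA names (vertical axis) with a uridine at each canonical position from 34 to 43 (horizontal axis), split into names with a listed Ψ site there (red) and names without (grey). Position 39 is nearly filled, with 16 of 18 names listed, while position 36 has 4 of 23.

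Most of the spread lay between sites, which differ in tRNA and in position. Of the total sum of squares of the 306 values (34 sites in 9 tissues, none missing), 87.9% lay between sites, 1.05% between tissues and 11.0% in the rest. The median over the tissues had a middle value of 0.486 over the 34 sites, with quartiles of 0.112 and 0.910. Over all tRNA sites it was 0.881. The sites divided widely, with 9 medians of at least 0.9 and 8 under 0.1. Of the values, 20 were listed at 0, none of them passed by the authors' filter, and 30 were at 1, none of them in root.

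The 24 sites at positions 38 and 39 stood above the other 10. Their middle level was 0.766, against 0.166 at the other 10, and 165 of 216 values (76.4%) passed the authors' filter, against 25 of 90 (27.8%). By place, the level was 0.766 at position 39 (lowest 0.112, highest 1), 0.530 at 38 (0.030 to 1), 0.331 at the single site at 33, 0.226 at 41 and 42 (0.013 to 0.451) and 0.108 in the anticodon (0.032 to 0.235). Every site in the anticodon had a lower median than every Ala, Gln, Phe and Cys site, but Pro 38 and Trp 39 were as low as the anticodon. Position alone therefore did not set the level.

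The filter, which rests on p-values with thresholds not stated, passed 190 of the 306 values (62.1%), against 78.2% of the values of all tRNA sites. It passed 23 of the 34 sites in root, where 73.9% of all tRNA sites passed, and 15 in seed (61.9% of all). The other counts were 23 in seedling (81.1%), 24 in shoot (84.2%), 23 in rosetta leaf (85.4%), 14 in cauline leaf (75.4%), 23 in stem (79.9%), 21 in flower (79.7%) and 24 in silique (82.2%), again with the share of all tRNA sites in parentheses. The members' share was below that of all sites in every tissue, by most in cauline leaf. In all 9 tissues 10 sites passed (54.7% of all tRNA sites did), and 4 sites passed in 1 tissue only (9.17% of all). The 10 were Ala-AGC-1, Ala-CGC-1, Ala-TGC-1, Arg-TCG-1, Arg-TCT-1, Arg-TCT-2 and the 4 Gln sites, all at position 38 or 39.

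**Figure D2:**
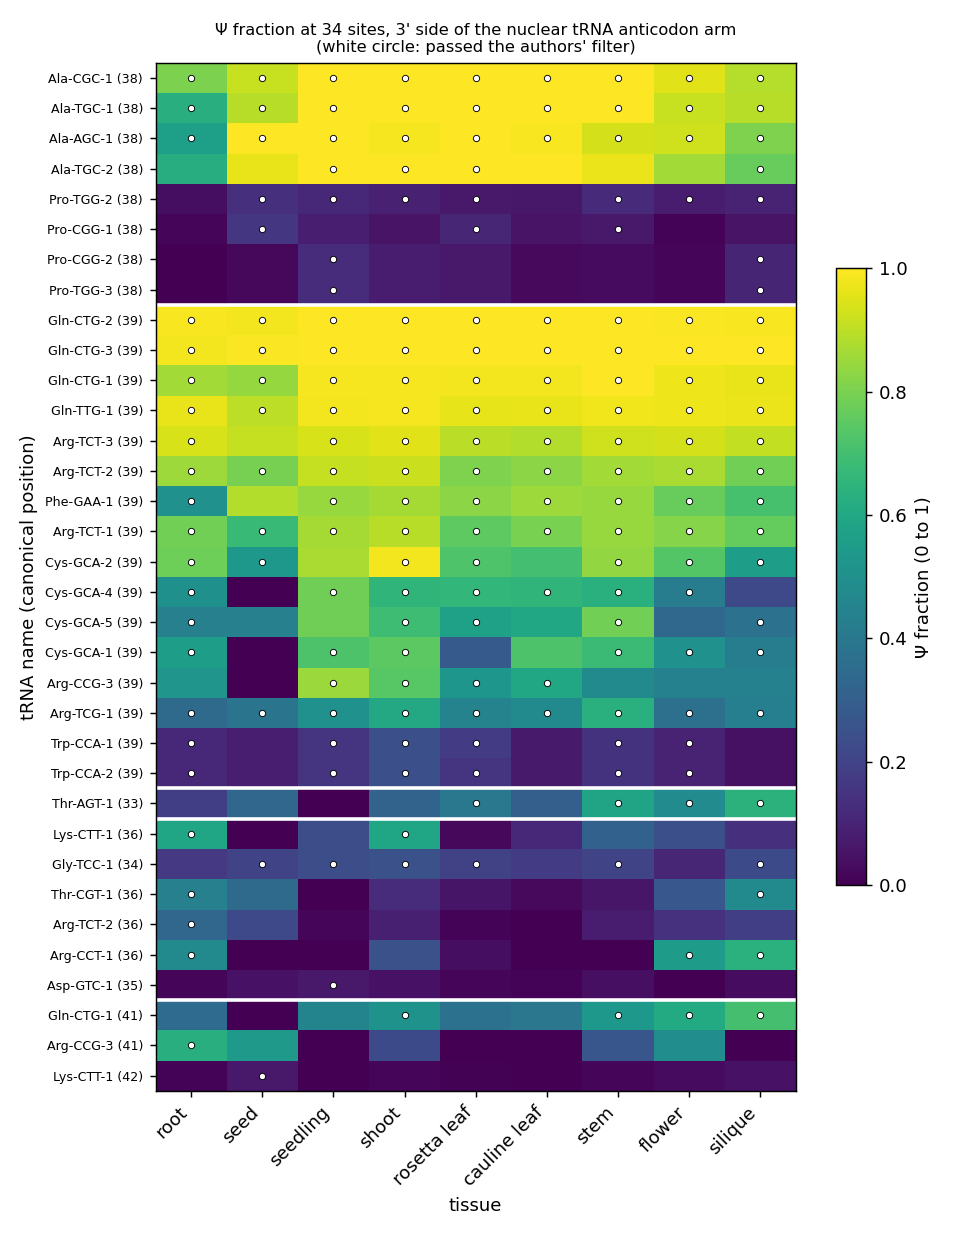
Ψ fraction (colour, 0 to 1) of the 34 sites (rows, tRNA name with canonical position in parentheses, grouped by place) in the 9 tissues (columns), with a white circle where the site passed the authors' filter. Ala 38 and Gln 39 are bright in most tissues, Pro 38 and Trp 39 are dark in all, and the 10 sites outside positions 38 and 39 carry few circles.

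Ala tRNAs carried a nearly complete Ψ38 outside root. Ala-CGC-1 had a fraction of 0.802 in root, against 0.915 in seed, 0.890 in silique, 0.956 in flower and 1 in seedling, shoot, rosetta leaf, cauline leaf and stem. Root was the lowest tissue in each of the 4 Ala names, with fractions of 0.563 for Ala-AGC-1, 0.802 for Ala-CGC-1, 0.628 for Ala-TGC-1 and 0.622 for Ala-TGC-2. Silique came next lowest in each of them, at 0.768 to 0.891, and outside root and silique no Ala value was below 0.862. Root minus the median of the other 8 tissues had a median of -0.367 over the 4 names. All but Ala-TGC-2 passed in all tissues. Ala-TGC-2 passed in 4 tissues and not in root.

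Pro tRNAs, with the same stem and the same 2 bases after the site, had little signal at position 38. Pro-TGG-2 had 0.038 in root, against 0.139 in seed, 0.113 in seedling, 0.091 in shoot, 0.070 in rosetta leaf, 0.064 in cauline leaf, 0.124 in stem, 0.075 in flower and 0.101 in silique, and it passed in 7 tissues, not in root or cauline leaf. The other Pro names lay between 0 and 0.158. Pro-CGG-2 and Pro-TGG-3 held identical values in all 9 tissues and count as 1 measurement. Both were listed at 0 in root, and had 0.020 in seed, 0.125 in seedling, 0.080 in shoot, 0.069 in rosetta leaf, 0.024 in cauline leaf, 0.030 in stem, 0.013 in flower and 0.105 in silique. Root was lower than the median elsewhere in all 4 Pro names, with a middle difference of -0.0495, a size that cannot be weighed without replicate error. Pro-CGG-1 passed in rosetta leaf, stem and seed, and the identical pair in seedling and silique.

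Gln tRNAs had fractions at or near 1, the ceiling of the scale, where a difference between tissues cannot show in full. Gln-CTG-2 had 0.990 in root, against 0.982 in seed, 0.994 in flower, 0.991 in silique and 1 in the other 5 tissues. Gln-CTG-3 stayed between 0.983 and 1 and Gln-TTG-1 between 0.901 and 0.986. Gln-CTG-1, whose arm has a T at 41 where the other Gln arms have none, ran lower, with 0.863 in root and 0.841 in seed, against 0.966 to 1 in the other tissues. The 36 Gln values at position 39 all passed.

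The Arg tRNAs at position 39 split by anticodon. Arg-TCT-2 had 0.854 in root, against 0.794 in seed, 0.913 in seedling, 0.918 in shoot, 0.808 in rosetta leaf, 0.825 in cauline leaf, 0.862 in stem, 0.872 in flower and 0.788 in silique. Root lay within the values of the other tissues here, and this was also so for Arg-TCT-1 (0.789 in root, 0.673 to 0.893 elsewhere) and Arg-TCT-3 (0.938 in root, 0.883 to 0.956 elsewhere). Arg-TCG-1, whose site is listed at position 40, had 0.347 in root, against 0.384 in seed, 0.507 in seedling, 0.605 in shoot, 0.449 in rosetta leaf, 0.476 in cauline leaf, 0.633 in stem, 0.369 in flower and 0.433 in silique. It passed in all 9 tissues at about these intermediate levels, and root was its lowest. No site of these tRNAs fell at canonical position 40.

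Arg-CCG-3 had the widest range of all members, 0.848. At position 39 it was listed at 0 in seed, against 0.520 in root, 0.848 in seedling, 0.739 in shoot, 0.525 in rosetta leaf, 0.599 in cauline leaf, 0.474 in stem and 0.439 in both flower and silique. It passed in seedling, shoot, rosetta leaf and cauline leaf. Its second site, at 41, ran in another order, with 0.630 in root, against 0.541 in seed, 0.226 in shoot, 0.267 in stem, 0.490 in flower and a listing at 0 in seedling, rosetta leaf, cauline leaf and silique. That site passed in root alone, its highest tissue, so its high root value is tied to its listing.

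Phe-GAA-1 had 0.504 in root, against 0.886 in seed, 0.846 in seedling, 0.864 in shoot, 0.828 in rosetta leaf, 0.854 in cauline leaf, 0.847 in stem, 0.767 in flower and 0.710 in silique. Root lay below each of the others, and the value was -0.343 from their median. It passed in every tissue but seed, where the fraction was highest.

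The 4 Cys names, matched to the same 14 genes, were intermediate at position 39. Their middle range of 0.598 was the widest of the isotypes there, but values listed at 0 enter it. Over passed values their ranges were 0.322 to 0.449, against 0.36 for Phe-GAA-1 and 0.323 for Arg-CCG-3. The other sites at 39 had smaller ranges over passed values. Cys-GCA-2 had 0.533 in seed, against 0.781 in root, 0.874 in seedling, 0.982 in shoot, 0.724 in rosetta leaf, 0.702 in cauline leaf, 0.838 in stem, 0.733 in flower and 0.558 in silique. Cys-GCA-4 was listed at 0 in seed, against 0.5 in root, 0.782 in seedling, 0.653 in shoot, 0.662 in rosetta leaf, 0.654 in cauline leaf, 0.636 in stem, 0.422 in flower and 0.222 in silique. Cys-GCA-1 was also listed at 0 in seed, against 0.561 in root, 0.719 in seedling, 0.747 in shoot, 0.283 in rosetta leaf, 0.719 in cauline leaf, 0.680 in stem, 0.507 in flower and 0.425 in silique. The 2 listings at 0 did not pass the filter and can be failed estimates. Cys-GCA-5 ran from 0.337 to 0.786, with 0.437 in both seed and root. The difference between seed and the median of the other tissues had a median of -0.422 over the 4 names. Over the 2 names with a seed value above 0 it was -0.186. Of the 36 values of the 4 names 25 passed, and in seed only that of Cys-GCA-2 did.

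Trp tRNAs were low at position 39, although a uridine there has the same neighbours as in Cys. Trp-CCA-1 had 0.112 in root, against 0.084 in seed, 0.150 in seedling, 0.244 in shoot, 0.175 in rosetta leaf, 0.073 in cauline leaf, 0.147 in stem, 0.099 in flower and 0.045 in silique. Trp-CCA-2 had 0.112 in root, against 0.084 in seed, 0.151 in seedling, 0.244 in shoot, 0.153 in rosetta leaf, 0.074 in cauline leaf, 0.147 in stem, 0.1 in flower and 0.045 in silique. The values of the pair were equal in 5 tissues and differed by at most 0.022, in rosetta leaf, so the names are close to 1 measurement. Both passed in the same 6 tissues.

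**Figure D3:**
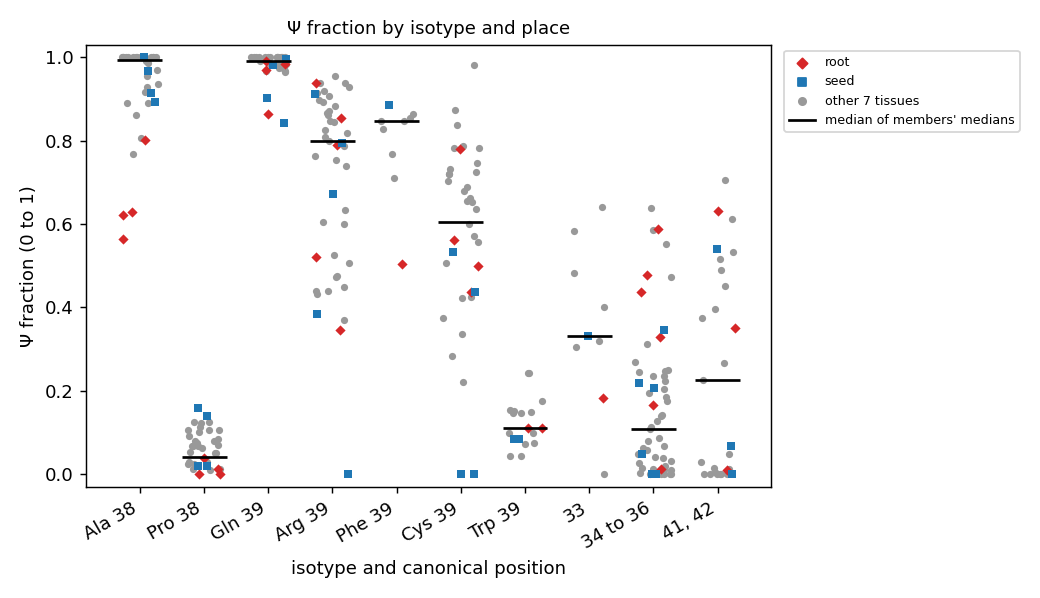
Ψ fraction (vertical axis, 0 to 1) of every member in root (red diamonds), seed (blue squares) and the other 7 tissues (grey circles), by isotype and canonical position (horizontal axis), with a black bar at the median of the members' medians. The root point of Phe 39 (0.504) lies under the rest. Those of Ala 38 (0.563 to 0.802) are each the lowest of their name, while Ala points of other tissues start at 0.768. At 34 to 36 root points reach 0.589 and those of other tissues 0.639, around a middle level of 0.108.

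The 6 anticodon sites were low in most tissues. All 4 at position 36 passed the authors' filter in root, where 73.9% of all tRNA sites did, and 2 passed in silique. Arg-TCT-2 at 36 passed in root alone, so its pass there comes with its listing. No other tissue could therefore pass all 4, and the count in root is no contrast with the other tissues. Where passed values can be compared, root was not above the other tissues by more than 0.003. Position 36 pairs with the first codon base, and all 4 sites are followed by A. Lys-CTT-1 had 0.589 in root, against a listing at 0 in seed, 0.235 in seedling, 0.586 in shoot, 0.020 in rosetta leaf, 0.114 in cauline leaf, 0.312 in stem, 0.245 in flower and 0.139 in silique. Thr-CGT-1 had 0.437 in root, against 0.345 in seed, 0.128 in shoot, 0.058 in rosetta leaf, 0.027 in cauline leaf, 0.062 in stem, 0.270 in flower, 0.473 in silique and a listing at 0 in seedling. Shoot was next to root for Lys-CTT-1, and silique lay above root for Thr-CGT-1.

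Arg-CCT-1 had 0.477 in root, against 0.249 in shoot, 0.038 in rosetta leaf, 0.551 in flower, 0.639 in silique and listings at 0 in seed, seedling, cauline leaf and stem. Arg-TCT-2, the fourth, was lower, with 0.329 in root, against 0.220 in seed, 0.016 in seedling, 0.088 in shoot, 0.010 in rosetta leaf, 0.079 in stem, 0.143 in flower, 0.186 in silique and a listing at 0 in cauline leaf. Its values were chosen for display after they were seen. Root was thus the highest tissue for Lys-CTT-1 and Arg-TCT-2 and not for the others.

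Over the 4 sites at position 36 the median was 0.457 in root, against 0.330 in silique, 0.258 in flower, 0.189 in shoot, 0.110 in seed, 0.0705 in stem, 0.029 in rosetta leaf, 0.0135 in cauline leaf and 0.008 in seedling. Set against the median of the remaining 8 tissues, passed or not, root was higher at the 4 sites by 0.246 to 0.458. Arg-TCT-2 passed in root alone, its highest tissue, so its difference is tied to its listing and adds no support. With passed values only, root differed from the other passed tissues by -0.118 for Arg-CCT-1, -0.036 for Thr-CGT-1 and 0.003 for Lys-CTT-1, so the positive difference rests on values that did not pass. The filter passed 8 of their 36 values: 4 in root, 2 in silique and 1 each in shoot and flower. In the T loop of the same 4 names the root difference was -0.187 to -0.111. Its sign was opposite to that at position 36 over all values. It was the same as that of Arg-CCT-1 and Thr-CGT-1 with passed values only. Whether the passed values at position 36 differ in depth from the others is unknown.

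**Figure D4:**
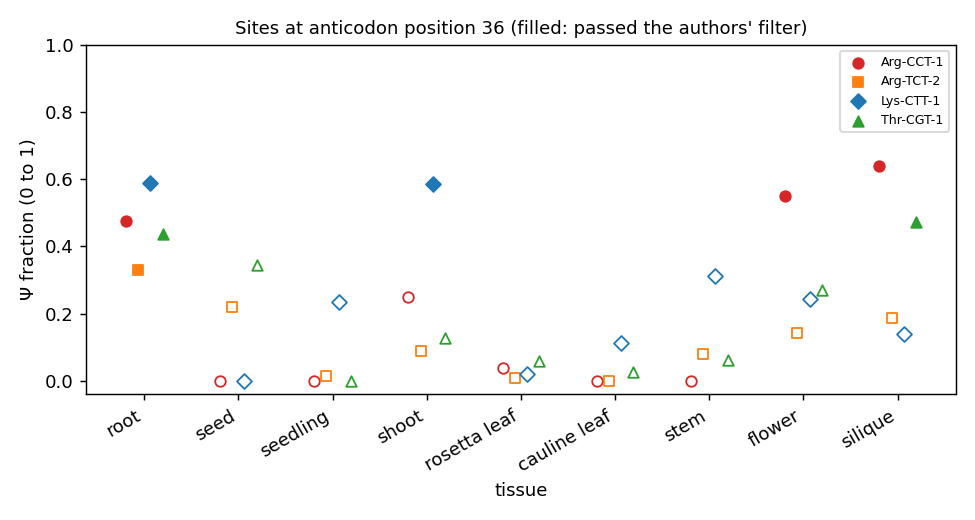
Ψ fraction (vertical axis, 0 to 1) at position 36 of Arg-CCT-1, Arg-TCT-2, Lys-CTT-1 and Thr-CGT-1 in each tissue (horizontal axis), filled where the value passed the authors' filter. In root all 4 values are filled and lie between 0.329 and 0.589, that of Arg-TCT-2 being its only passed value and so tied to its listing. In seed, seedling, rosetta leaf, cauline leaf and stem none is filled.

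The remaining sites were few. Gly-TCC-1, placed at the wobble position 34 in a run with T33, had 0.166 in root, against 0.206 in seed, 0.235 in seedling, 0.248 in shoot, 0.194 in rosetta leaf, 0.176 in cauline leaf, 0.204 in stem, 0.109 in flower and 0.223 in silique, and passed in 6 tissues. It was the steadiest of the sites outside positions 38 and 39 that passed in more than 1 tissue. Asp-GTC-1 at 35 stayed between 0.003 and 0.068 and passed in seedling alone, with 0.013 in root, against 0.049 in seed, 0.068 in seedling, 0.048 in shoot, 0.012 in rosetta leaf, 0.010 in cauline leaf, 0.041 in stem, 0.003 in flower and 0.032 in silique.

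Thr-AGT-1, placed at position 33 and hence in the nearly invariant uridine before the anticodon, had 0.184 in root, against 0.331 in seed, 0.320 in shoot, 0.400 in rosetta leaf, 0.304 in cauline leaf, 0.583 in stem, 0.482 in flower, 0.641 in silique and a listing at 0 in seedling. It passed in rosetta leaf, stem, flower and silique. Gln-CTG-1 at 41 had 0.351 in root and was listed at 0 in seed, against 0.451 in seedling, 0.515 in shoot, 0.375 in rosetta leaf, 0.396 in cauline leaf, 0.534 in stem, 0.611 in flower and 0.706 in silique, and it passed in shoot, stem, flower and silique. Arg-CCG-3 and Gln-CTG-1, the names with a site at 41, were also those with 1 matching gene. Lys-CTT-1 at 42, the lowest of all, had 0.010 in root, against 0.068 in seed, where alone it passed, 0.015 in shoot, 0.006 in rosetta leaf, 0.013 in stem, 0.030 in flower, 0.048 in silique and listings at 0 in seedling and cauline leaf.

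Just outside the window, at listed position 33, the neighbours were Arg-CCT-1, His-GTG-1 and His-GTG-2 at canonical 33, with medians of 0.369, 0.767 and 0.742. Pro-TGG-2 and Pro-TGG-3, also listed at 33, had 0.509 and 0.523, and their T34 closes a run of Ts, so the base cannot be placed. Pro-CGG-2, listed at 33 with the same median as Pro-TGG-3, has a C at 34 in its anticodon, and this listing was not placed. No site was listed at 45.

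The middle range over the tissues, highest minus lowest fraction, was 0.253 at the 34 sites, against 0.200 over all tRNA sites. The 8 widest of the 34 members had a range of at least 0.5, each with a lowest value listed at 0. A range this wide occurred at 57 of 343 tRNA sites with all values and 9 of 39 nuclear sites listed at 26 to 33. The 6 narrowest had a range under 0.1. The widest were Arg-CCG-3 39 (0.848), Cys-GCA-4 (0.782), Cys-GCA-1 (0.747), Gln-CTG-1 41 (0.706) and Thr-AGT-1 (0.641), with the values given above. The lowest value fell in root alone at 10 sites and in seed alone at 10, and the highest in shoot alone at 9. Part of the seed count rests on listings at 0 that did not pass the authors' filter. These were Arg-CCG-3 39, Cys-GCA-4, Cys-GCA-1, Gln-CTG-1 41 and the anticodon site of Lys-CTT-1. The root count holds both Pro-CGG-2 and Pro-TGG-3, whose values are identical and were listed at 0 in root without passing. The counts of lowest and highest tissues and of narrow ranges were not set against all tRNA sites.

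Set against the median of the remaining 8 tissues, root was lower at 25 of the 34 sites, where 86.0% of all tRNA sites were, and the middle difference was -0.028, against -0.116 over all tRNA sites. Seed was lower in the same way at 24 of 34 (70.8% of all tRNA sites), with a middle difference of -0.0375, against -0.0295 over all. The root difference, over all values, changed with place. It was below at 8 of 8 sites at position 38 (middle -0.128) and 12 of 16 at 39 (middle -0.0143), but at 2 of 6 in the anticodon (middle 0.294). At 38 the middle root difference was -0.367 for Ala and -0.0495 for Pro, so -0.128 describes neither isotype. Neither Ala-TGC-2 nor any Pro site passed in root, and Pro-CGG-2 and Pro-TGG-3 are 1 measurement. Over the 10 sites outside 38 and 39 root was below at 5 and above at 5, with a middle difference of 0.121. Of those above, Arg-TCT-2 36 and Arg-CCG-3 41 passed in root alone, their highest tissue. Their differences are tied to their listing and add no support. The 0.121 rests partly on both, and the anticodon middle of 0.294 partly on Arg-TCT-2 36. The difference over the 10 sites was 0.0323 with zeros taken as missing. It turned to -0.036 with passed values only, where 3 sites were left.

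Compared with the other sites, the 3' side lay lower than the T loop and near the 5' side of the same arm. The 61 nuclear T loop sites had a middle level of 0.936 and 55 passed in all tissues. The 39 nuclear sites listed at 26 to 33 had 0.509, with 11 passed in all tissues, and the 7 chloroplast sites listed at 34 to 44 had 0.583. In root the 3' side differed by -0.028, against -0.157 for the 5' side and -0.149 for the T loop. The 3' side is thus the region with the smallest middle root difference of these, over signs that differ by place.

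Every member name also had a T loop site, which gives a comparison within the same tRNA name. The 3' side site was below it at 27 of 34 sites, above it at 6 and at the same level at 1, Gln-CTG-2. The 6 were the 4 Ala sites, Gln-CTG-3 and Gln-TTG-1. The middle difference was -0.192 at positions 38 and 39 and -0.804 at the other places. In the T loop, root was below the other tissues in 29 of 30 names, by a median of -0.164 and from -0.213 to 0.0075.

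The root difference of the 3' side was far from that of the T loop in some names and close in others. No association was computed. Ala-AGC-1 differed by -0.425 at 38 and by 0.0075 in its T loop, the only T loop not below. That T loop had a median of 0.613, against a middle level of 0.947 over the member names. Gln-CTG-1 differed by -0.1205 at 39 and -0.143 in its T loop. Phe-GAA-1 differed by -0.343 at 39 and -0.164 in its T loop. The Arg-TCT names differed by -0.0195, 0.0105 and 0.018 at 39, against -0.163, -0.144 and -0.092 in their T loops. Of the 24 sites at 38 and 39, 16 had a root difference nearer 0 than their T loop. The Pro 38 and Trp 39 sites were bound to be among them unless root was higher. Their medians over the other tissues (0.0495 to 0.1235) were smaller than the drop in their T loops (-0.2005 to -0.1535). The count is therefore not a comparison of equals. These are descriptions of pooled values with no error, and the names with shared reads are counted separately in them.

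**Figure D5:**
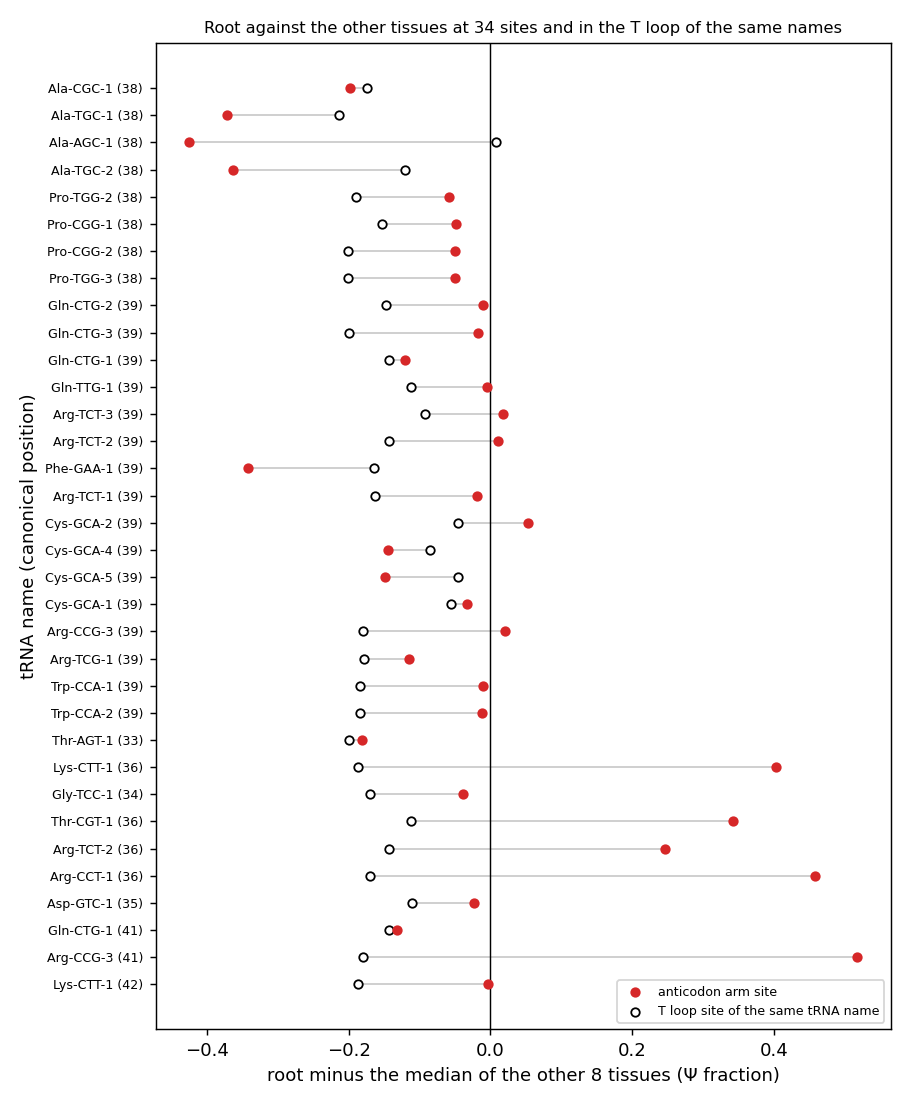
Root minus the median of the other 8 tissues (horizontal axis, Ψ fraction) at the 34 sites (rows, tRNA name with canonical position) in red, joined by a line to the T loop site of the same name in open circles. Ala 38 and Phe 39 lie left of their T loop sites, most Gln and Arg 39 sites lie near 0, and the position 36 sites lie right of 0, a side that rests on values that did not pass the authors' filter.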

How the data were processed

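BID-seq libraries were made from total RNA of 9 tissues, 2 treated and 2 input libraries each. The authors mapped reads to TAIR10, pooled gapped and ungapped reads of both replicates and calibrated the gap ratio. The deposited tRNA table holds, per site and tissue, this Ψ fraction (0 to 1) and a TRUE or FALSE flag for the authors' p-value filter. Depth is unknown, so neither intervals nor tests were possible.

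Sites were selected by name and listed position. Canonical positions were set from TAIR10.1 tRNA genes with the name's anticodon by requiring T33, a 7-base loop and at least 4 of 5 stem pairs. The T loop was listed position 54 to 60 for the group of T loop sites. The T loop site of the same name was the one listed at 54 to 56. Level was the median over tissues, and root was set against the median of the other 8 tissues. All 9 values are printed for the member of each isotype and position group passed in most tissues, for the 5 widest members and for members that share values. Members and lists were chosen with earlier results of these data known. Alternatives covered zeros, passed values only, means, shared arms and the window. The code was tested on simulated data. Python 3.11.15, numpy 2.4.6, pandas 2.3.3 and matplotlib 3.10.9 were used.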

Additional observations from a re-analysis of the deposited data

Results flagged for a closer look

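The tissue values of each site and isotype group were checked for a highest or lowest tissue that stood apart, judged by its gap to the next over the whole range (Dixon's critical value). Of 41 sets 9 stood apart. Chance flags about 1 in 20 separate sets, but these are not separate, since the 2 isotype medians restate their members. In root the lowest values were the median of Ala 38 (0.625, next 0.849), Ala-AGC-1 38 (0.563, next 0.807), Ala-TGC-1 38 (0.628, next 0.891), Gln-CTG-3 39 (0.983, next 0.996) and Phe-GAA-1 39 (0.504, next 0.710). Gln-CTG-3 had a range of only 0.017, with most values at the ceiling of 1. In seed they were the median of Gln 39 (0.942, next 0.976), Gln-TTG-1 39 (0.901, next 0.964), Arg-CCG-3 39 (0, next 0.439) and Gln-CTG-1 41 (0, next 0.351). The 2 zeros did not pass the authors' filter. Tissues are different samples and not replicates, so standing apart was not tested against replicate error.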

How the results depend on the processing

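No paired analysis was possible because the deposited fractions are pooled over replicates. Of 44 alternative settings, 30 kept their value within 0.05 (counts within 1.5 times), 14 moved and 0 reversed. The level of 0.486 was 0.604 with passed values only, 0.390 with 1 name per arm sequence (the most frequent arm of its genes) and 0.636 for listed positions 37 to 44. The range of 0.253 was 0.161 with passed values only, 0.330 by means, 0.199 for listed positions 37 to 44 and 0.170 without root and seed. The difference between positions 38 to 40 and the anticodon, 0.658, was 0.564 with zeros missing, 0.374 with passed values only, 0.447 by means and 0.714 with 1 name per arm. The difference from the T loop, -0.453, was -0.395 with zeros missing and -0.301 with passed values only. Counting fractions of at least 0.1 in place of the filter gave 16 sites in all tissues, against 10. After seeing the data, the root difference was split by place. Outside 38 and 39 it was 0.121, 0.0323 with zeros missing and -0.036 with passed values only, so its sign turned. The 0.121 and 0.0323 include sites that passed in root alone, their highest tissue. At 38 and 39 the root difference kept its sign, from -0.0488 to -0.0773. Fewer values enter when zeros are missing or only passed values count, and the cause of the changes was not tested. Depth is not known, so low fractions and zeros have no floor.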
